A study of Mus musculus with 32 samples.

Results

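The NF-kB system was followed through 10 of the 39017 genes in the count table, taken by name with earlier results of these data known. They are the genes of the 5 subunits (Nfkb1, Nfkb2, Rel, Rela and Relb) and of 5 proteins grouped here as inhibitors (Nfkbia, Nfkbib, Nfkbie, Nfkbiz and Tnfaip3). All 10 were among the 18484 genes that passed the filter on low counts. RNA of mouse embryonic fibroblasts was sequenced in 32 samples from 4 cell lines: a wild-type line called wtATM, an ATM knock-out line, a second wild-type line called wtATMIN and an ATMIN knock-out line. ATM is the kinase that signals DNA double-strand breaks, and ATMIN is a protein that binds ATM and takes part in its activation. Each line was grown in complete DMEM with fetal calf serum and treated with 1 µM aphidicolin (APH), an inhibitor of the replicative DNA polymerases that stalls replication forks, or with DMSO, its solvent, for 4 h or 24 h. These 16 groups held 2 samples each, and the DMSO groups are the controls of every APH comparison. With 1 line per genotype, effects of a deletion and of the line it sits in cannot be told apart. Details of the knock-out alleles, the embryonic age and the strain of the lines are not given in the sources used here. The labels number the samples of a group as replicates without saying that they were separate cultures, so the p-values measure only the spread between these samples, which may be technical.

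NF-kB dimers wait in the cytoplasm, bound to IkB proteins, until a kinase complex marks the IkB protein for destruction and the dimer moves to the nucleus. There it switches on genes of inflammation and survival, and also genes of its own subunits and inhibitors, which form feedback loops. Nfkb1 and Nfkb2 encode the precursors p105 and p100, which are processed to the DNA-binding subunits p50 and p52, whereas Rela, Relb and Rel encode the subunits with an activation domain. Nfkbia, Nfkbib and Nfkbie encode IkBα, IkBβ and IkBε, Nfkbiz encodes the nuclear protein IkBζ, and Tnfaip3 encodes A20, a ubiquitin-editing enzyme that acts above the kinase complex. In fibroblasts the pathway is known for its response to TNF and IL-1, and a slower route from DNA damage in the nucleus, which runs through ATM and NEMO, is also known.

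The promoters of the members are shown first because autoregulation through kB sites is a textbook property of several of these genes. RefSeq promoter windows (250 bases before to 50 bases after a transcription start, build GRCm38.p6, 5′ to 3′ on the gene's strand) matched 7 of the 10 members. The windows were searched on both strands for the NF-kB consensus motif, a degenerate decamer. At least 1 match lay in the windows of 5 of the 7 genes: Nfkb2, Rel, Nfkbia, Nfkbie and Tnfaip3. By comparison, 5.17% of the 26742 genes with such windows held a match. Windows with matches are printed with the matches in capitals. A further Nfkb2 window, which overlaps the second one printed and holds the same decamer, and a Tnfaip3 window of another start site with no match are left out.
Nfkb2, chr19:46304487-46304786, plus strand: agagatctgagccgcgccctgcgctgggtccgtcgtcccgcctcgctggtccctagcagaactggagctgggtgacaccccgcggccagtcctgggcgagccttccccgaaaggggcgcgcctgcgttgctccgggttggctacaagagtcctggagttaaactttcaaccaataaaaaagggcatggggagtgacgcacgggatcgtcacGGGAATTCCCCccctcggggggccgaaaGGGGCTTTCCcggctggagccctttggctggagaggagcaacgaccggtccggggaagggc
Nfkb2, chr19:46305445-46305744, plus strand: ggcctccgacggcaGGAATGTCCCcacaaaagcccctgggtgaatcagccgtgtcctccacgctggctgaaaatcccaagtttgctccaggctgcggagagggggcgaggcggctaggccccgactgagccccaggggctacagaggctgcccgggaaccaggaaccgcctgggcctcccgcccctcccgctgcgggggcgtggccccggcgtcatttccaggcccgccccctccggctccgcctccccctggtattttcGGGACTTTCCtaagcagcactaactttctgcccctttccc
Rel, chr11:23770920-23771219, minus strand: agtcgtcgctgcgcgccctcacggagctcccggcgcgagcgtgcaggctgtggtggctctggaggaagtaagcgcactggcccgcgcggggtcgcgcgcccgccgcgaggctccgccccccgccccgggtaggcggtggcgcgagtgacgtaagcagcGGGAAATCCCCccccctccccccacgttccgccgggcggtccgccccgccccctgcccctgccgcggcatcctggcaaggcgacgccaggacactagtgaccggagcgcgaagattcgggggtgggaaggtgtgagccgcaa
Nfkbia, chr12:55492598-55492897, minus strand: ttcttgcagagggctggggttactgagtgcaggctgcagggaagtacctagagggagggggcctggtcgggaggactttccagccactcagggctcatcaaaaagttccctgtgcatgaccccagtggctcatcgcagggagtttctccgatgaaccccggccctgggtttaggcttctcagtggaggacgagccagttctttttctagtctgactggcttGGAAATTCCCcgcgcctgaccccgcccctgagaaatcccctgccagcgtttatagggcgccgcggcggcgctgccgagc
Nfkbie, chr17:45555450-45555749, plus strand: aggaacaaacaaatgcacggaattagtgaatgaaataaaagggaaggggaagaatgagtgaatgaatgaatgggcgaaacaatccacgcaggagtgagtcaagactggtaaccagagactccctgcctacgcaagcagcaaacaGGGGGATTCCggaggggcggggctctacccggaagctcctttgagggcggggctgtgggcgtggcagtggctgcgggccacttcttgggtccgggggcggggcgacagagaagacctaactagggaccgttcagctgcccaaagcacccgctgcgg
Tnfaip3, chr10:19015361-19015660, minus strand: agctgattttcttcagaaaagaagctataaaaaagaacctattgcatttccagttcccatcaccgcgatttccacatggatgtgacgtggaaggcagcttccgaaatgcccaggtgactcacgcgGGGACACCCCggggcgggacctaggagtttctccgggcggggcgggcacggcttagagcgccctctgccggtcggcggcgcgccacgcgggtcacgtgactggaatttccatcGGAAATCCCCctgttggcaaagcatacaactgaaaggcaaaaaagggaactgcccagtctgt
In the first Nfkb2 window the matches began 39, 38 and 11 bases before the start site, and those that begin 39 and 38 bases before it overlap. The second window held, 10 bases after its own start, the decamer GGGACTTTCC, known from the immunoglobulin kappa enhancer. That decamer occurred in the windows of 0.176% of genes. The Nfkbia match began 29 bases, the Nfkbie match 106 bases and the nearer Tnfaip3 match 12 bases before the start. The windows of Rela and Nfkbib held no match, which says only that these letters are not in them. A match is a description of the sequence; binding was not measured.

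Total counts per sample ran from 9321329 to 21020662. Atmin was between 3.77 and 6.77 CPM (read counts scaled to the size of the library) in the 8 samples of the ATMIN knock-out line and between 20.4 and 32.9 CPM in those of wtATMIN. Atm was lower in the ATM knock-out line (17.8 to 45.5 CPM over 8 samples) than in wtATM (43.1 to 65.1 CPM) in each condition except 24 h APH, where the ranges overlapped (42.2 to 45.5 against 43.1 to 52.3 CPM). All 10 fibroblast markers passed the filter, and their summed level ran from 3530 to 9188 CPM in wtATMIN and from 9227 to 24621 CPM in the other lines. The 7 epithelial markers summed to between 98.6 and 243 CPM in wtATM, mostly Krt14 with a mean of 138 CPM, and to at most 5.94 CPM in the other lines; their part in differences that involve wtATM was not tested. The 9 blood markers summed to between 20.3 and 46.7 CPM and the 7 endothelial markers to at most 2.95 CPM, with Emcn at 0 throughout. Gm42418, a gene that overlaps ribosomal RNA, ran from 13783 to 97900 CPM at 4 h and from 252 to 5754 CPM at 24 h. No label names a library batch, and a batch that went with time could not be told apart from it. The APH 4 h samples of the ATM knock-out line stood apart from each other more than those of any other group, with a Pearson correlation of log CPM of 0.981 against 0.991 to 0.994 elsewhere.

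On build mm10 the subunit genes lie at chr3:135584655-135691547 (Nfkb1), chr19:46304320-46312385 (Nfkb2), chr11:23736847-23770970 (Rel), chr19:5637483-5648130 (Rela) and chr7:19606217-19629438 (Relb). The inhibitor genes lie at chr12:55489410-55492647 (Nfkbia), chr7:28758251-28767512 (Nfkbib), chr17:45555703-45563169 (Nfkbie), chr16:55811375-55838899 (Nfkbiz) and chr10:19000910-19015657 (Tnfaip3). Per kilobase of gene length, Nfkb2 had the highest median level of the subunits (54.5 CPM per kb over 32 samples), followed by Rela (37.9), Nfkb1 (29.4), Relb (11.0) and Rel (3.46 CPM per kb). Among the inhibitors the order of median levels was Nfkbia (28.6 CPM per kb), Nfkbib (9.92), Nfkbiz (6.43), Tnfaip3 (5.68) and Nfkbie (3.63). Nfkb1 and Rela, the subunit genes of the classical dimer, moved least: their highest sample was 2.18 and 2.09 times their lowest. Nfkbie spanned a factor of 13.3, from 1.98 CPM in a DMSO 24 h sample of the ATM knock-out line to 26.4 CPM in an APH 4 h sample of the ATMIN knock-out line. Tnfaip3 spanned a factor of 9.10, from 8.27 CPM in a DMSO 24 h sample of wtATMIN to 75.3 CPM in an APH 4 h sample of the ATMIN knock-out line. In RNA of a whole culture, fewer cells that express a gene and less RNA per cell cannot be told apart. Most steps in the order of the 16 groups were not larger than the spread within groups for Rel, where 13 of 15 neighbouring groups overlapped, whereas for Nfkb2 and Tnfaip3 4 of 15 did. For Rela, Relb and Nfkbib 10 did, for Nfkb1 and Nfkbiz 9, for Nfkbie 7 and for Nfkbia 6. The top group was APH 4 h of the ATMIN knock-out line for Nfkb1, Rel, Nfkbie and Tnfaip3, and APH 24 h of wtATMIN for Nfkb2, Relb and Nfkbiz. For Relb this top group (44.1 to 44.6 CPM) overlapped APH 4 h of the ATMIN knock-out line (37.7 to 46.1 CPM). For Nfkbiz it (51.2 to 54.7 CPM) overlapped DMSO 24 h of wtATMIN (49.4 to 52.6 CPM). Reads of Nfkb2 and of the antisense gene Psd cannot be told apart over 299 shared exon bases, since the strand setting of the counting is not given; Psd had 8181 counts over all samples and Nfkb2 91864. Nfkbib shares 42 exon bases with Sirt2 and 314 with Ccer2 in the same way. Nfkb2 also shares 531 exon bases with the antisense gene AC114539.1, which has no counts of its own here.

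**Figure D1:**
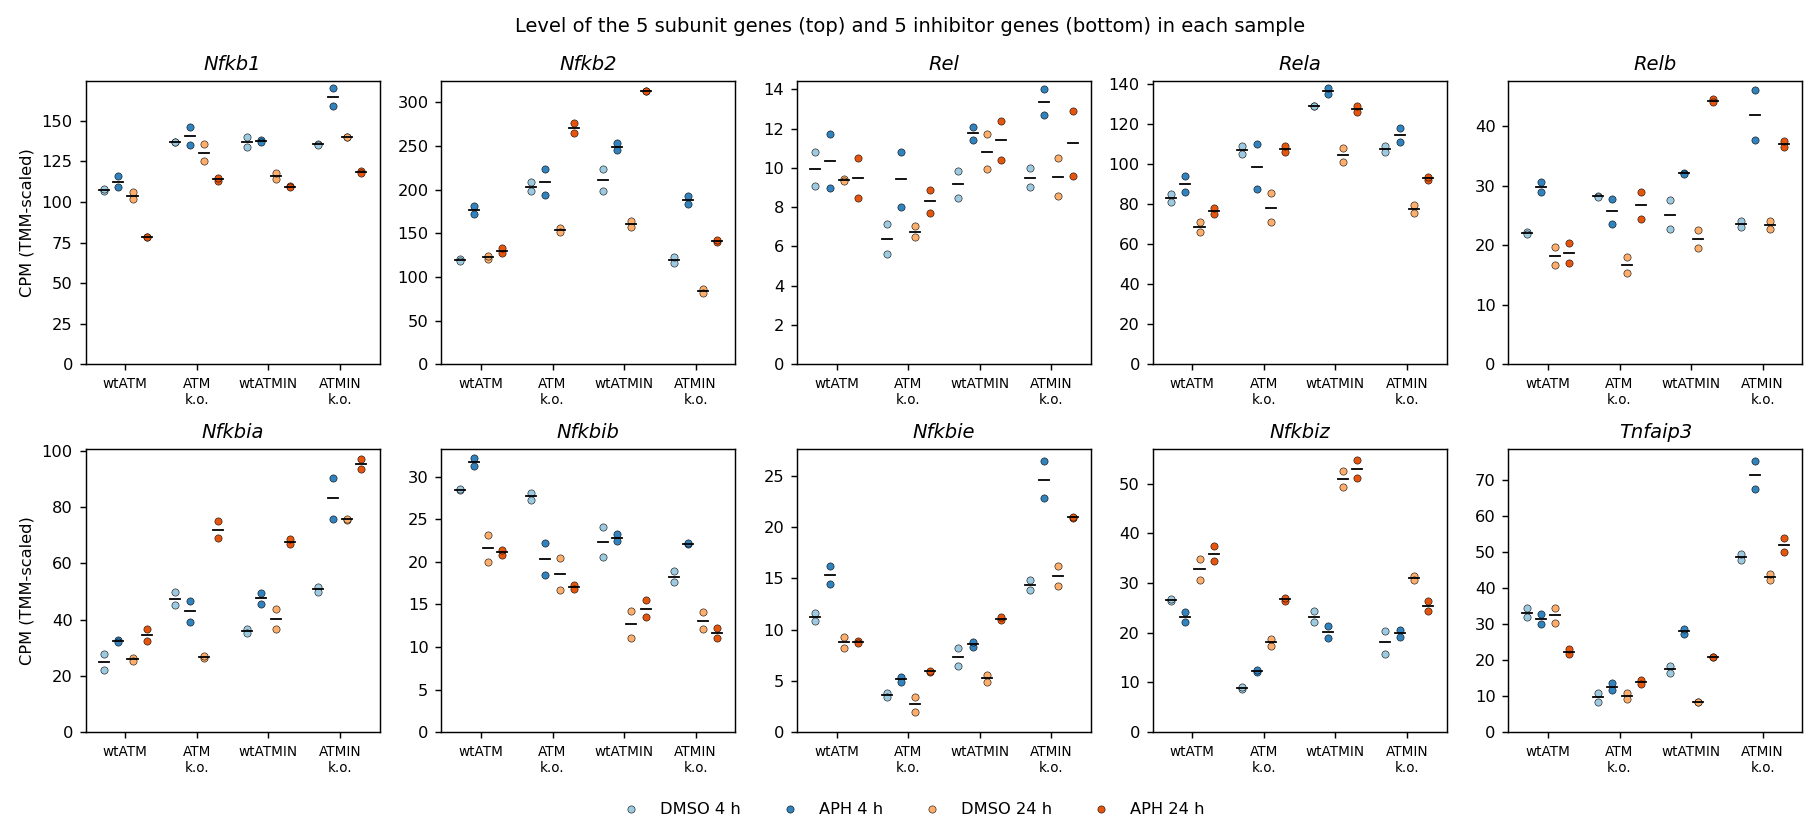
Level of each member in each of the 32 samples, in TMM-scaled CPM on linear axes from 0. Each point is a sample, each horizontal bar the mean of the 2 samples of a group, and colours mark treatment and time. Tnfaip3 and Nfkbie are highest in the ATMIN knock-out line in all 4 conditions, and Nfkb2 at 24 h has its smallest step from DMSO to APH in wtATM (121 and 124 CPM against 127 and 133 CPM).

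The first comparison asks what 4 h of stalled replication does to these genes. Nfkb2, Relb and Nfkbia rose with APH in every line but the ATM knock-out, where none of them was called. Nfkbie rose in wtATM and both knock-out lines, and Tnfaip3 in both knock-out lines and wtATMIN. Of the 10 members, 4 rose and 0 fell in wtATM, where 2.82% of all genes tested were called higher and 2.76% lower. The ATM knock-out line had 4 higher and 1 lower, beside 14% and 15.4% of all genes. In wtATMIN 4 rose and 0 fell, beside 7.25% and 7.75%, and in the ATMIN knock-out line 7 rose and 0 fell, beside 9.48% and 10.9%. The members' median log2 change was 0.14, 0.04, 0.23 and 0.52 in that order of lines, and the median of all genes tested lay between -0.016 and 0.00.

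Nfkb2, the gene of the p100 precursor, stood at 121 and 118 CPM with DMSO and at 172 and 181 CPM with APH in wtATM, a log2 change of 0.56 (SE 0.07, edgeR adjusted p = 2.63e-07). In the ATMIN knock-out line it stood at 116 and 123 CPM with DMSO and 184 and 193 CPM with APH (0.66, SE 0.07, adjusted p = 1.87e-09). The step was smaller in wtATMIN, from 198 and 224 to 245 and 253 CPM (0.24, SE 0.07, adjusted p = 0.0105). The groups overlapped in the ATM knock-out line, with 198 and 209 CPM against 224 and 194 CPM. Relb, the partner of p52 in the alternative pathway, went from 24.1 and 23.0 CPM to 37.7 and 46.1 CPM in the ATMIN knock-out line (0.83, SE 0.11, adjusted p = 3.97e-07), a 1.77-fold level. It rose by 0.43 in wtATM and by 0.35 in wtATMIN. Rel, the c-Rel gene, rose in both knock-out lines (0.58 in ATM, 0.49 in ATMIN), and Nfkb1, the p105 gene, rose in the ATMIN knock-out line alone among the 4 tests (0.28, SE 0.06, adjusted p = 0.000702). Rela was called in no line, with log2 changes between -0.11 and 0.12. Without APH replicate 1 of the ATM knock-out line, whose APH samples stand apart, Rela was at -0.31 there (edgeR adjusted p = 0.00544).

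Among the inhibitors, Nfkbia, whose product IkBα is the fastest negative feedback of the pathway, went from 51.6 and 49.9 CPM to 75.8 and 90.3 CPM in the ATMIN knock-out line (0.71, SE 0.09, adjusted p = 3.46e-07). The same gene rose by 0.41 in wtATMIN and 0.39 in wtATM, and in ATM knock-out cells it overlapped, at 49.9 and 45.0 CPM with DMSO against 46.6 and 39.2 CPM with APH. Nfkbie, the IkBε gene, went from 13.9 and 14.8 CPM to 26.4 and 22.8 CPM in the ATMIN knock-out line (0.78, SE 0.12, adjusted p = 8.2e-06). Tnfaip3, the A20 gene, went from 18.5 and 16.5 CPM to 27.3 and 28.6 CPM in wtATMIN (0.68, SE 0.10, adjusted p = 9.15e-06) and from 47.8 and 49.6 CPM to 67.5 and 75.3 CPM in the ATMIN knock-out line (0.55, SE 0.09, adjusted p = 1.16e-05). In wtATM Tnfaip3 overlapped between treatments, at 31.9 and 34.5 CPM with DMSO and 32.9 and 30.1 CPM with APH. Nfkbiz rose and Nfkbib fell in the ATM knock-out line alone among the 4 tests of each, by log2 values of 0.47 and -0.43.

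Of the 20 calls at 4 h, 8 held without any 1 library, and these were Nfkb2 in wtATM, Tnfaip3 in wtATMIN, and Nfkb1, Nfkb2, Relb, Nfkbia, Nfkbie and Tnfaip3 in the ATMIN knock-out line. Calls lost without any 1 of the 4 libraries compared were Relb in wtATM (0.40 to 0.47, adjusted p 0.0671 to 0.163), Nfkbie in wtATM (0.36 to 0.53, 0.0699 to 0.333), Nfkbie in the ATM knock-out line (0.43 to 0.60, 0.0792 to 0.239) and Rel in the ATMIN knock-out line (0.41 to 0.57, 0.0504 to 0.197). In wtATM the Nfkbia call was lost without DMSO replicate 2 (0.24) or either APH replicate (0.37 and 0.41). In wtATMIN the Nfkb2 and Relb calls were lost without DMSO replicate 1 (0.15 and 0.21) or either APH replicate, and the Nfkbia call without replicate 2 of DMSO (0.37) or APH (0.34). Rel in the ATM knock-out line was lost without DMSO replicate 2 (0.41) or APH replicate 1 (0.31). The Tnfaip3 call of that line was lost without replicate 2 of DMSO (0.18) or APH (0.25), Nfkbiz without DMSO replicate 1 (0.42) or APH replicate 2 (0.45), and Nfkbib without APH replicate 2 (-0.32). When only the 2 groups compared were fitted, all 5 calls of the ATM knock-out line were lost (adjusted p 0.11 to 0.241). DESeq2 ended those of Nfkbie in wtATM (0.46) and Rel in the ATMIN knock-out line (0.51), and those of Nfkbie and Tnfaip3 in the ATM knock-out line, which were also lost under scaling by total count and with no filter. Leaving out a library leaves 1 sample in its group, which is then assumed to vary like the other groups.

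**Figure D2:**
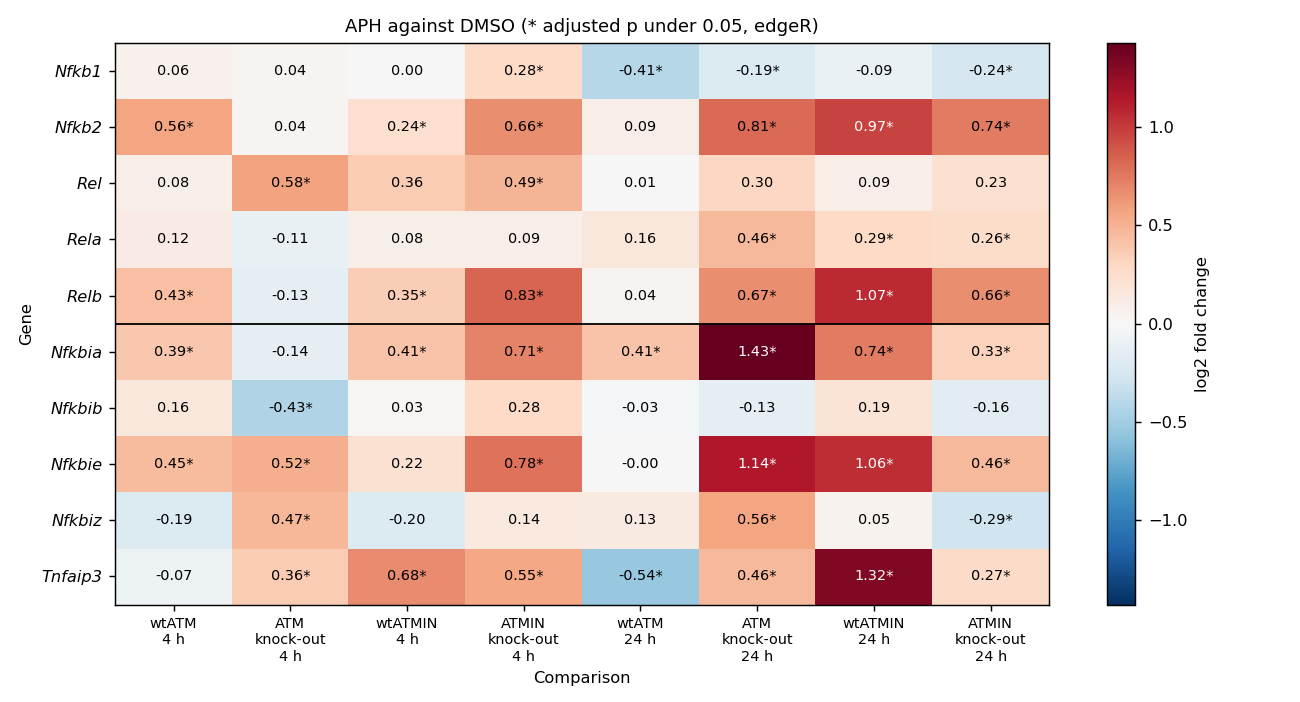
Log2 change of each member with APH against DMSO, for the 4 lines at 4 h and at 24 h, as a colour scale with the value printed in each cell. An asterisk marks an edgeR adjusted p under 0.05, and the black line parts subunits from inhibitors. Nfkbia is called higher in 7 of the 8 columns, and wtATM at 24 h is the column in which Nfkb1 and Tnfaip3 fell and only Nfkbia rose.

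At 24 h the question is which of these changes remain after a full day of APH. Nfkb2, Rela, Relb, Nfkbia, Nfkbie and Tnfaip3 all rose in wtATMIN and both knock-out lines. In wtATM only Nfkbia rose, while Nfkb1 and Tnfaip3 fell. Nfkbia was the 1 member that rose in all 4 lines. Of the 10 members, 1 rose and 2 fell in wtATM, where 14.4% of all genes tested were called higher and 14.3% lower. The ATM knock-out line had 7 higher and 1 lower, beside 15.7% and 12.2%. The counts were 6 and 0 in wtATMIN, beside 13.6% and 15.3%, and 6 and 2 in the ATMIN knock-out line, beside 14.3% and 15.8%. The members' median log2 change was 0.02, 0.51, 0.51 and 0.27 in that order, and the median of all genes lay between 0.00 and 0.01.

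Nfkb2 reached 313 CPM in both APH samples of wtATMIN from 164 and 157 CPM with DMSO, a 1.95-fold level (log2 0.97, SE 0.07, edgeR adjusted p = 1.5e-13). It went from 156 and 152 to 265 and 276 CPM in ATM knock-out cells (0.81, SE 0.07, adjusted p = 1.17e-11). In the ATMIN knock-out line it went from 86.0 and 82.0 to 140 and 142 CPM (0.74, SE 0.07, adjusted p = 2.19e-10). No APH sample overlapped a DMSO sample in these 3 lines. Relb went from 22.5 and 19.5 CPM to 44.6 and 44.1 CPM in wtATMIN (1.07, SE 0.11, adjusted p = 1.11e-09), and rose by 0.67 and 0.66 in the ATM and ATMIN knock-out lines. In wtATM Relb overlapped, at 16.7 and 19.8 CPM against 17.1 and 20.4 CPM. Rela, the gene of the main activating subunit p65, rose by less: 0.46 in the ATM knock-out line, 0.29 in wtATMIN and 0.26 in ATMIN knock-out cells. Nfkb1 moved the other way. It fell by 0.41 in wtATM, from 106 and 102 to 78.3 and 78.7 CPM (SE 0.06, adjusted p = 3.99e-06), by 0.24 in the ATMIN knock-out line and by 0.19 in the ATM knock-out line, with -0.09 in wtATMIN not called. Rel, at 6.48 to 12.9 CPM in all samples at 24 h, was called in no line.

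Nfkbia showed its largest step in the ATM knock-out line, from 26.4 and 27.0 CPM to 68.9 and 74.9 CPM, a 2.69-fold level (1.43, SE 0.10, edgeR adjusted p = 1.67e-13). It rose by 0.74 in wtATMIN, by 0.41 in wtATM and by 0.33 in the ATMIN knock-out line, the line with its highest DMSO level (75.5 and 75.7 CPM). Nfkbie went from 1.98 and 3.41 CPM to 5.83 and 6.0 CPM in ATM knock-out cells (1.14, SE 0.19, adjusted p = 2.2e-05) and from 5.58 and 4.93 CPM to 10.9 and 11.2 CPM in wtATMIN (1.06, SE 0.15, adjusted p = 7.35e-07). Tnfaip3 showed opposite signs in the wild-type lines. It rose 2.50-fold in wtATMIN, from 8.43 and 8.27 CPM to 20.8 and 21.0 CPM (1.32, SE 0.11, adjusted p = 4.01e-11), and fell in wtATM, from 30.4 and 34.4 CPM to 21.6 and 23.0 CPM (-0.54, SE 0.10, adjusted p = 5.72e-05). Nfkbiz rose in the ATM knock-out line (0.56) and fell in the ATMIN knock-out line (-0.29). Nfkbib, the gene of IkBβ, which is not known as a fast feedback gene, was called in no line, with changes between -0.16 and 0.19.

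At 24 h 17 of the 25 calls held without any 1 library. Lost calls were Nfkbia in wtATM without APH replicate 2 (0.32), and Nfkb1 in the ATM knock-out line without DMSO replicate 2 (-0.13) or either APH replicate (-0.18 and -0.21). Tnfaip3 in that line was lost without DMSO replicate 2 (0.35) or APH replicate 1 (0.40), and Rela in wtATMIN without replicate 2 of DMSO (0.24) or APH (0.26). In the ATMIN knock-out line Rela was lost without DMSO replicate 1 (0.22) or APH replicate 2 (0.25), and Nfkbie without DMSO replicate 1 (0.37). The Tnfaip3 and Nfkbiz calls of that line were lost without either DMSO replicate (0.24 and 0.29 for Tnfaip3, -0.27 and -0.31 for Nfkbiz) or without APH replicate 2 (0.21 and -0.23). Scaling by total count alone ended 3 calls, Nfkb1 in the ATMIN knock-out line (-0.15, adjusted p = 0.0659), Nfkb1 in the ATM knock-out line (-0.16, adjusted p = 0.0504) and Nfkbiz in the ATMIN knock-out line (-0.20, adjusted p = 0.141).

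Whether the response itself differed between times was tested within each line as the change at 24 h minus the change at 4 h. In the ATM knock-out line, where Nfkb2, Relb and Nfkbia were not called at 4 h, the later response was larger for Nfkbia (difference 1.56, SE 0.14, edgeR adjusted p = 4.68e-10), Relb (0.80), Nfkb2 (0.77) and Rela (0.56). These 4 members called higher and 0 lower stood beside 12.1% and 9.89% of all genes tested. The DMSO means of all 4 were lower at 24 h, which enters these differences. From 4 h to 24 h the mean of Relb went from 28.2 to 16.7 CPM with DMSO and from 25.7 to 26.7 CPM with APH. Rela went from 107 to 78.3 CPM and from 99.0 to 107 CPM. Nfkb2 went from 204 to 154 CPM and from 209 to 271 CPM, and Nfkbia from 47.5 to 26.7 CPM and from 42.9 to 71.9 CPM. In wtATMIN the later response was also larger for 4 members, Nfkbie (0.85), Nfkb2 (0.73), Relb (0.72) and Tnfaip3 (0.64), with 0 lower, beside 9.12% and 9.44%. There the mean of Tnfaip3 fell with both treatments, from 17.5 to 8.35 CPM with DMSO and from 28.0 to 20.9 CPM with APH. The means of Nfkbie, Nfkb2 and Relb fell with DMSO and rose with APH. In wtATM the later response was lower for 3 members, Nfkb1, Nfkb2 and Tnfaip3 (each -0.47), and higher for 0, beside 7.24% and 7.87%. Of these, Nfkb1 and Tnfaip3 were not called at 4 h and fell at 24 h, whereas Nfkb2 rose at 4 h and was not called at 24 h. In the ATMIN knock-out line the later response was lower for Nfkb1 (-0.52), Nfkbiz (-0.43) and Nfkbia (-0.38) and higher for 0, beside 10.3% and 10.8%. There Nfkb1 rose at 4 h and fell at 24 h, Nfkbiz was not called at 4 h and fell at 24 h, and Nfkbia rose by less at 24 h. Tnfaip3 in wtATM lost the call without 1 of 4 libraries, DMSO 4 h replicate 1 (-0.41), APH 4 h replicate 1 (-0.39), DMSO 24 h replicate 2 (-0.37) or APH 24 h replicate 1 (-0.42). Nfkbie in wtATMIN lost it without DMSO 4 h replicate 2 (0.65). In the ATMIN knock-out line the Nfkbia call was lost without any 1 of 7 of the 8 libraries (values of all 8 between -0.50 and -0.24), that of APH 4 h replicate 1 being the exception. There the Nfkbiz call was lost without 1 of 5, replicate 1 of DMSO 4 h (-0.27), of APH 4 h (-0.38) or of DMSO 24 h (-0.41), or replicate 2 of DMSO 24 h (-0.45) or of APH 24 h (-0.39). Scaling by total count ended both of these calls (-0.29 and -0.35), no filter that of Nfkbiz, and fitting only the 4 groups of the line that of Rela in the ATM knock-out line (0.53, adjusted p = 0.0547).

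The next question is whether loss of ATM or ATMIN changed the response to APH, tested as the knock-out's response minus that of the paired wild-type line. For ATM, Nfkb2, Relb and Nfkbia were called lower at 4 h and higher at 24 h; the change between the times was not tested. At 4 h the response of the ATM knock-out line was lower than that of wtATM for Nfkb2 (-0.52, SE 0.10, edgeR adjusted p = 0.000873), Relb (-0.56), Nfkbia (-0.53) and Nfkbib (-0.59), and higher for Nfkbiz (0.67, SE 0.17, adjusted p = 0.0107). That is 1 higher and 4 lower of 10, beside 6.02% and 5.35% of all genes tested. At 24 h it was higher for 5 members and lower for 0, beside 2.68% and 1.23%. The 5 were Nfkbie (1.15, SE 0.24, adjusted p = 0.0035), Nfkbia (1.01, SE 0.14, adjusted p = 1.54e-05), Tnfaip3 (1.00, SE 0.16, adjusted p = 9.89e-05), Nfkb2 (0.72, SE 0.09, adjusted p = 4.48e-06) and Relb (0.63, SE 0.17, adjusted p = 0.0236). The members' median difference was -0.13 at 4 h and 0.53 at 24 h, and that of all genes 0.006 and 0.021. In wtATM, from which the 24 h differences are taken, Nfkb2 stood at 121 and 124 CPM with DMSO and 127 and 133 CPM with APH. Nfkbie stood there at 9.30 and 8.25 CPM against 8.87 and 8.66 CPM. Tnfaip3 fell in wtATM (-0.54) and rose in the ATM knock-out line (0.46), so its difference of 1.00 holds both steps. Nfkbia rose in both lines, by less in wtATM.

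For ATMIN 1 member differed at each time. At 4 h the Nfkb2 response was larger in the knock-out line than in wtATMIN (0.42, SE 0.09, edgeR adjusted p = 0.0187), with 1 higher and 0 lower beside 0.346% and 0.325% of all genes. At 24 h the Tnfaip3 response was smaller in the knock-out line (-1.05, SE 0.15, adjusted p = 1.92e-05), with 0 higher and 1 lower beside 1.01% and 1.42%. All 5 differences of inhibitor genes at 24 h were below 0, and Nfkbia (-0.41, adjusted p = 0.0877) and Nfkbie (-0.61, adjusted p = 0.0917) missed the threshold. The median difference was -0.41 for the inhibitors, -0.15 for the subunits and 0.008 for all genes tested. The share of all genes below 0 was not counted, and only Tnfaip3 was called. When only the 4 groups compared were fitted, which leaves fewer samples for the spread, 5 of the 20 tests of ATM differences passed in place of 10, and 7 of the 20 tests of ATMIN differences in place of 2. In that fit all 5 calls of the ATM difference at 4 h were lost (adjusted p 0.123 to 0.173).

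Among the ATM differences, 4 of the 10 calls held without any 1 library: Nfkb2 at both times, and Nfkbia and Tnfaip3 at 24 h. Without knock-out APH replicate 1 the 4 h difference also passed for Rela (-0.42) and Tnfaip3 (0.54), and without knock-out DMSO replicate 1 for Tnfaip3 (0.62). At 4 h Relb, Nfkbia, Nfkbib and Nfkbiz were all lost without APH replicate 2 of the ATM knock-out line, the shallowest library (-0.46, -0.42, -0.48 and 0.64), or without wtATM APH replicate 2 (-0.53, -0.55, -0.58 and 0.60). Relb was also lost without wtATM DMSO replicate 1 (-0.58) or 2 (-0.56) or knock-out DMSO replicate 2 (-0.57), Nfkbia without wtATM DMSO replicate 2 (-0.38) or knock-out DMSO replicate 1 (-0.46), and Nfkbib without wtATM DMSO replicate 1 (-0.59) or knock-out DMSO replicate 2 (-0.62). At 24 h Relb was lost without replicate 2 of wtATM DMSO (0.51), knock-out DMSO (0.53) or knock-out APH (0.51), or wtATM APH replicate 1 (0.50), and Nfkbie without knock-out DMSO replicate 1 (0.79, adjusted p = 0.102). The ATMIN difference of Nfkb2 at 4 h was lost without any 1 of 5 of its 8 libraries, wtATMIN DMSO replicate 2 (0.33), wtATMIN APH replicate 1 (0.40) or 2 (0.45), knock-out DMSO replicate 1 (0.39) or knock-out APH replicate 2 (0.39).

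**Figure D3:**
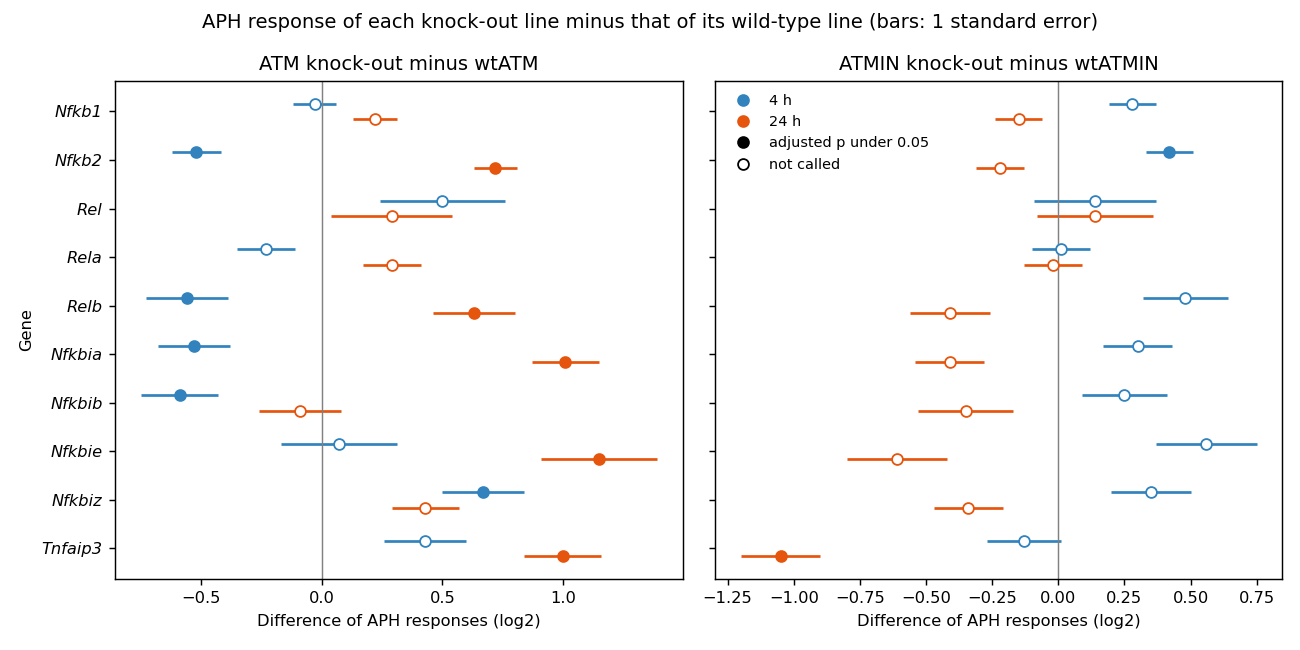
APH response of each knock-out line minus that of the paired wild-type line, in log2 units, for each member at 4 h (blue) and 24 h (orange). Bars are 1 standard error, and filled points have an edgeR adjusted p under 0.05. For ATM, Nfkb2, Relb and Nfkbia lie below 0 at 4 h and above 0 at 24 h, and for ATMIN the called points are Nfkb2 at 4 h (0.42) and Tnfaip3 at 24 h (-1.05).

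The knock-out lines were then compared with their wild-type lines within each condition. In each of these comparisons a large share of all genes tested was called, as given with the counts, so a called member is no exception here. Nfkb1 and Nfkb2 were higher in the ATM knock-out line in all 4 conditions, and Nfkbie, Nfkbiz and Tnfaip3 lower. In the ATMIN knock-out line Nfkbia, Nfkbie and Tnfaip3 were higher, and Nfkb2 and Rela lower, in all 4 conditions. Nfkb2, Nfkbie and Tnfaip3 thus differed in opposite directions in the 2 pairs; the difference between the pairs was not tested. In the ATM pair 5 members were higher and 4 lower with DMSO at 4 h (27.3% and 27.9% of all genes), 3 and 4 with APH at 4 h (30.3% and 28.6%), 3 and 4 with DMSO at 24 h (29.5% and 29.8%), and 5 and 4 with APH at 24 h (31.5% and 29.9%). In the ATMIN pair the counts were 3 and 4 with DMSO at 4 h (21.9% and 23%), 5 and 2 with APH at 4 h (19.8% and 22.3%), 4 and 3 with DMSO at 24 h (23.4% and 26.2%), and 3 and 5 with APH at 24 h (23.8% and 26.8%).

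Tnfaip3 with DMSO at 4 h stood at 10.9 and 8.45 CPM in ATM knock-out cells against 31.9 and 34.5 CPM in wtATM (log2 -1.77, SE 0.11, edgeR adjusted p = 5.73e-16). With DMSO at 24 h it stood at 42.3 and 43.8 CPM in the ATMIN knock-out line against 8.43 and 8.27 CPM in wtATMIN, a 5.15-fold level (2.36, SE 0.11, adjusted p = 7.37e-20). No sample of these lines overlapped in either comparison. Nfkbie in DMSO at 24 h stood at 1.98 and 3.41 CPM in ATM knock-out cells and 9.30 and 8.25 CPM in wtATM (-1.71, SE 0.18, adjusted p = 2.12e-10), and at 14.3 and 16.2 CPM in the ATMIN knock-out line and 5.58 and 4.93 CPM in wtATMIN (1.53, SE 0.14, adjusted p = 2.47e-11). Its deficit in the ATM knock-out line was smallest with APH at 24 h (-0.57), the condition in which Tnfaip3 (-0.68) and Nfkbiz (-0.43) also showed their smallest deficits. Nfkbiz, a nuclear IkB that acts on the transcription of secondary response genes, was lowest relative to wtATM with DMSO at 4 h (8.64 and 9.12 CPM against 26.3 and 26.8 CPM, -1.58).

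Nfkb2 with APH at 24 h stood at 265 and 276 CPM in ATM knock-out cells against 127 and 133 CPM in wtATM (1.06, SE 0.07, edgeR adjusted p = 3.94e-16), and at 140 and 142 CPM in the ATMIN knock-out line against 313 CPM in both samples of wtATMIN (-1.15, SE 0.07, adjusted p = 6.87e-17). Nfkb1 in the ATM pair differed by 0.32 to 0.54. Rela was lower in the ATMIN knock-out line by small amounts (-0.25 to -0.46) and higher in the ATM knock-out line in 3 of 4 conditions (0.19 to 0.49 where called). Nfkbia was higher in the ATMIN knock-out line by 0.49 to 0.90 and in the ATM knock-out line in each condition (0.41 to 1.06) except DMSO at 24 h (0.05, not called). Rel in the ATM knock-out line was lower with DMSO at 4 h (-0.63) and 24 h (-0.48).

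In the ATM pair with APH at 4 h, fitting only the groups compared ended the calls of Nfkb1 (0.30, adjusted p = 0.0546) and Nfkb2 (0.22, adjusted p = 0.149). Rela was called there without knock-out APH replicate 2 (0.29), and Relb without replicate 1 (-0.35). Of the 32 calls of the ATM pair, 25 held without any 1 library. Lost ones were Nfkb2 (0.12) and Nfkbia (0.26) with APH at 4 h without knock-out APH replicate 1, Rela with DMSO at 24 h without replicate 1 of wtATM (0.14) or of the knock-out line (0.05), and Nfkbib with APH at 24 h without any 1 of its 4 libraries (-0.28 to -0.33). With DMSO at 4 h they were Relb without wtATM replicate 2 (0.35) and Rel without wtATM replicate 1 (-0.50) or knock-out replicate 2 (-0.46). Rel with DMSO at 24 h was lost without either wtATM replicate (-0.47 and -0.48) or knock-out replicate 1 (-0.42). In the ATMIN pair Rela was lost with DMSO at 4 h without knock-out replicate 2 (-0.24), and with APH at 4 h without wtATMIN replicate 2 (-0.23) or knock-out replicate 1 (-0.20). Nfkbib with DMSO at 4 h was lost without wtATMIN replicate 2 (-0.17) or knock-out replicate 1 (-0.24) or 2 (-0.35), and with APH at 24 h without wtATMIN replicate 1 (-0.16) or knock-out replicate 1 (-0.33) or 2 (-0.20). Nfkbiz with DMSO at 4 h was lost without replicate 1 of either line (-0.29 and -0.19). Relb was lost with APH at 4 h without knock-out replicate 2 (0.23) and with APH at 24 h without any 1 of 4 libraries (-0.19 to -0.24). With no filter or with DESeq2, Nfkbib with DMSO at 4 h and Relb and Nfkbib with APH at 24 h were not called. Scaling by total count ended the ATM pair's call of Rela with DMSO at 24 h (0.15), and DESeq2 that of Rel (-0.47).

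**Figure D4:**
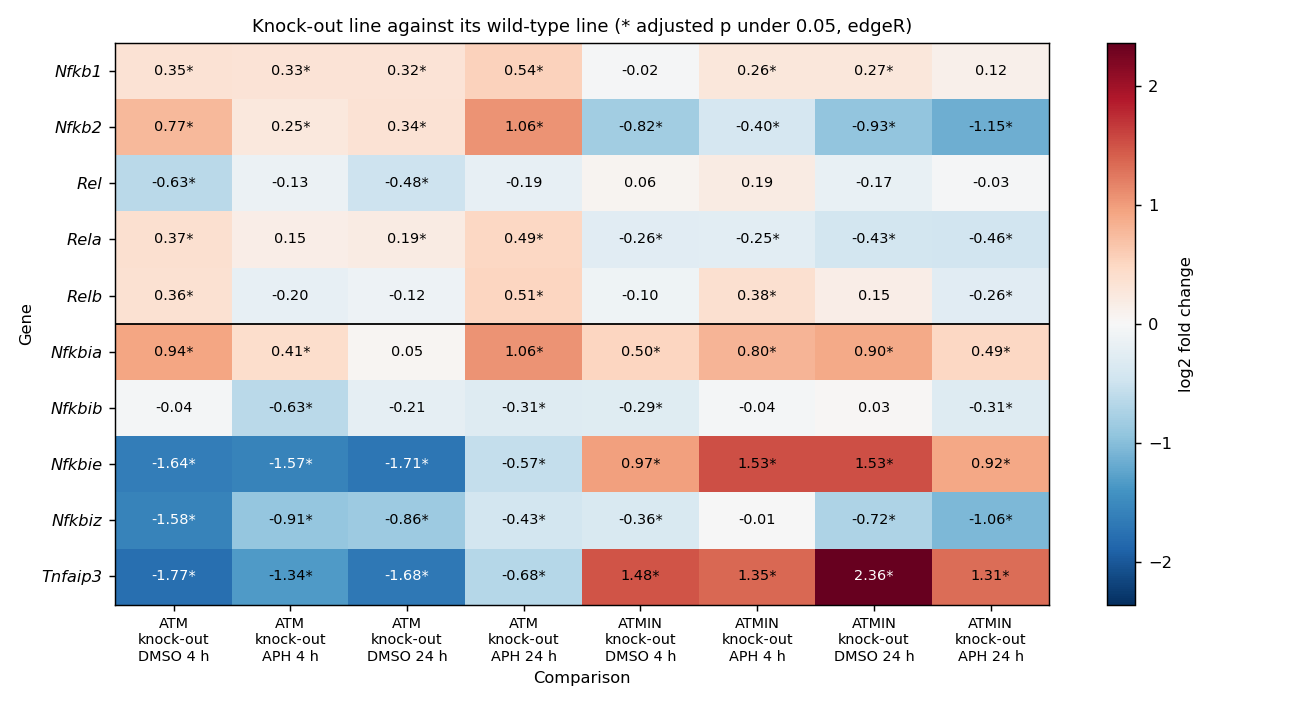
Log2 difference of each member between the knock-out and the wild-type line of a pair, in each of the 4 conditions, as a colour scale with the value printed in each cell. An asterisk marks an edgeR adjusted p under 0.05, and the black line parts subunits from inhibitors. Tnfaip3 runs from -1.77 to -0.68 in the ATM pair and from 1.31 to 2.36 in the ATMIN pair.

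The wild-type lines without APH differed from each other as well. With DMSO at 4 h wtATMIN was higher than wtATM for 4 members and lower for 3 (28.8% and 28.4% of all genes), and at 24 h higher for 5 and lower for 3 (31.5% and 30.2%). Tnfaip3 was lower in wtATMIN by 0.93 at 4 h and by 1.95 at 24 h, when it stood at 8.43 and 8.27 CPM against 30.4 and 34.4 CPM (log2 -1.95, SE 0.11, edgeR adjusted p = 1.22e-17). Nfkbie and Nfkbib were also lower at both times (-0.61 and -0.73, -0.35 and -0.76), and Nfkb1, Nfkb2, Rela and Nfkbia higher at both. Nfkbib at 4 h lost its call without wtATMIN replicate 1 (-0.24), and under scaling by total count (-0.25). Nfkb1 at 24 h lost it without any 1 of 4 libraries (0.13 to 0.18) and with no filter (0.15), and stood at 0.27 under scaling by total count. At 24 h with DMSO, Tnfaip3 in wtATMIN was thus the lowest of all 16 groups.

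Within DMSO, the samples at 24 h were set against those at 4 h in each line. Time in culture and a possible library batch cannot be told apart in this difference. Nfkbiz was higher at 24 h in all 4 lines, by 0.30 in wtATM, 0.78 in the ATMIN knock-out line, 1.03 in the ATM knock-out line and 1.14 in wtATMIN, where it went from 24.3 and 22.1 CPM to 52.6 and 49.4 CPM. Nfkbib (-0.40 to -0.81) and Rela (-0.28 to -0.47) were lower in all 4 lines. Members higher and lower numbered 1 and 3 in wtATM (23.1% and 23.3% of all genes), 1 and 5 in the ATM knock-out line (24.6% and 24.1%), 1 and 6 in wtATMIN (29.1% and 26.3%), and 2 and 3 in the ATMIN knock-out line (23.4% and 23.8%). Nfkbia moved apart by line, falling by 0.83 in the ATM knock-out line and rising by 0.57 in the ATMIN knock-out line. Tnfaip3 fell in wtATMIN (-1.06, SE 0.12, edgeR adjusted p = 1.76e-09), from 18.5 and 16.5 CPM to 8.43 and 8.27 CPM, and was called in no other line. In wtATM the calls of Rela and Nfkbiz were lost without DMSO 24 h replicate 1 (-0.22 and 0.21) and without DMSO 4 h replicate 2 (-0.24) and 1 (0.29) respectively, and that of Nfkbib without DMSO 24 h replicate 1 (-0.29). Nfkbie fell in wtATM by 0.36 and in wtATMIN by 0.48. The call in wtATM was lost without any 1 of its 4 libraries (-0.27 to -0.44, edgeR adjusted p 0.0544 to 0.242), with no filter and with DESeq2, and that in wtATMIN without replicate 2 of DMSO 4 h (-0.28) or of DMSO 24 h (-0.40). In the ATM knock-out line Nfkbie (-0.43, not called) was at -0.86 and called without DMSO 24 h replicate 2. Scaling by total count ended the calls of Nfkbie in wtATM (-0.24) and wtATMIN (-0.35), of Rela in wtATM (-0.17) and of Nfkb1 in wtATMIN (-0.11). The Nfkbib call in the ATMIN knock-out line was lost without DMSO 24 h replicate 1 (-0.37, adjusted p = 0.0508).

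Other genes of the pathway were read from lists of ligands, receptors, kinases and adaptors, further inhibitors, the DNA damage route and target genes. The lists were chosen with earlier results of these data known, and the genes named are those called in most of the 8 APH comparisons. The values therefore describe these lists and do not test them. Counts come first for wtATM and its knock-out partner, then for wtATMIN and its partner, and are to be read against the shares of all genes called higher, 2.82%, 14%, 7.25% and 9.48% at 4 h and 14.4%, 15.7%, 13.6% and 14.3% at 24 h. Shares called lower were 2.76%, 15.4%, 7.75% and 10.9% at 4 h and 14.3%, 12.2%, 15.3% and 15.8% at 24 h. Of 37 genes of kinases and adaptors, all of which passed the filter, 1, 9, 6 and 8 rose with APH at 4 h (2.7%, 24.3%, 16.2% and 21.6%) and 7, 11, 13 and 10 at 24 h (18.9%, 29.7%, 35.1% and 27%), while 0 to 5 fell. Traf1, an adaptor that is itself an NF-kB target, was called higher in 6 of 8, with 2.30 in the ATM knock-out line at 24 h. Map3k7, the gene of the kinase TAK1 above the IkB kinases, was called higher in 5 of 8, with changes of at most 0.29. Tirap was called higher in 5 and lower in 0, and Ube2n higher in 1 and lower in 4. Of 15 receptor genes, 1, 4, 2 and 3 rose at 4 h (6.67%, 26.7%, 13.3% and 20%) and 2, 5, 2 and 2 at 24 h (13.3%, 33.3%, 13.3% and 13.3%), while 0 to 3 fell. Il1rl1, the receptor of IL-33, was called higher in 6 and lower in 2, and Tnfrsf1a, the main TNF receptor, lower in 4 and higher in 0 (-0.40 to 0.09). Only 4 of 13 ligand genes passed the filter, so the list says little about ligands. Il18 was called higher in 4 and lower in 1. Of 19 further inhibitors, 1, 2, 0 and 2 rose at 4 h (5.26%, 10.5%, 0% and 10.5%) and 4, 6, 4 and 1 at 24 h (21.1%, 31.6%, 21.1% and 5.26%), while 0 to 3 fell. Tnip1, whose product works with A20, was called higher in all 4 lines at 24 h (0.38 to 0.92) and in none at 4 h. Rnf11 was called higher in 4 of 8 and lower in 0, Pdlim2 higher in 2 and lower in 3, and Commd1 higher in 0 and lower in 3.

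Of the 16 genes of the DNA damage route, 1, 6, 5 and 6 rose at 4 h (6.25%, 37.5%, 31.2% and 37.5%) and 3, 3, 5 and 6 at 24 h (18.8%, 18.8%, 31.2% and 37.5%), while 0 to 4 fell. At 24 h the share of 18.8% in wtATM and in ATM knock-out cells stood beside 14.4% and 15.7% of all genes. In the same lines 4 and 3 of the 16 fell (25% and 18.8%), beside 14.3% and 12.2% of all genes. Pidd1, which carries the signal of DNA damage to NEMO, rose in 7 of 8 comparisons, with 1.02 in wtATM at 24 h and 0.20, not called, in wtATM at 4 h. Erc1 was called higher in 3 and lower in 3, and Ube2n and Map3k7, given above, are also on this list. Among 30 target genes other than chemokines, 25 passed the filter. Of these, 7, 6, 6 and 10 rose at 4 h in wtATM, the ATM knock-out line, wtATMIN and the ATMIN knock-out line, (28%, 24%, 24% and 40%) and 7, 13, 10 and 7 at 24 h (28%, 52%, 40% and 28%), while 0 to 3 fell. Lif, a cytokine gene, and Ier3, an early survival gene, rose in all 8 comparisons (0.61 to 2.25 and 0.49 to 0.96), and Ptgs2, the COX-2 gene, in 7. Of 9 chemokine genes, 2, 3, 1 and 6 rose at 4 h (22.2%, 33.3%, 11.1% and 66.7%) and 3, 6, 5 and 4 at 24 h (33.3%, 66.7%, 55.6% and 44.4%), and 0 to 2 fell. Cxcl10 reached a log2 change of 5.35 in the ATM knock-out line at 24 h, against 2.21 in wtATM. Over the 8 comparisons Cxcl10 and Ccl2 were each called higher in 5 and lower in 0. Cxcl1 was called higher in 5 and lower in 3, and Cx3cl1 higher in 4 and lower in 1. The median log2 change of the 25 targets lay between 0.08 and 0.40 at 4 h and between 0.10 and 0.89 at 24 h, that of the chemokine genes between 0.06 and 1.77 and between 0.09 and 1.87, and those of the other lists except the ligands between -0.20 and 0.32. In the difference of responses between the ATM knock-out line and wtATM at 24 h, 6 of 25 targets and 5 of 9 chemokine genes were higher and 2 and 0 lower, beside 2.68% and 1.23% of all genes. In the ATMIN difference at 24 h, 0 and 0 were higher and 4 and 4 lower, beside 1.01% and 1.42%.

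Among the members themselves, over the means of 16 groups, Nfkbie and Tnfaip3 were the pair with the most similar pattern (Pearson r = 0.932), followed by Rel and Nfkbie (0.766) and Nfkb2 and Rela (0.756). Nfkbia and Nfkbib were the pair with the most opposite pattern (-0.573). These values describe 16 groups that share lines, so they are not independent points. Outside the members, 10993 genes were ranked by likeness to each one over the same group means. Cep170b was among the nearest 3 to both Nfkbie (0.938) and Tnfaip3 (0.926). The nearest genes were Dnajc11 and Mcm3 for Nfkb1 (both 0.937), Nploc4 for Nfkb2 (0.92), Elovl7 for Rel (0.888), Pdcd7 for Rela (0.913), Clspn for Relb (0.818), Smg8 for Nfkbia (0.916), Rpl19-ps4 for Nfkbib (0.966), Med19 for Nfkbiz (0.939) and Tmem183a for Tnfaip3 (0.938).

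The authors' deposited table of APH against DMSO at 4 h in wtATMIN calls 4 members higher and 0 lower, and their deposited table at 24 h calls 6 higher and 0 lower. In the authors' deposited tables of the ATM pair, 5, 2, 2 and 5 members are higher and 4, 4, 4 and 3 lower with DMSO at 4 h, APH at 4 h, DMSO at 24 h and APH at 24 h. Their deposited tables of the ATMIN pair, in that order, give 3, 5, 4 and 3 higher and 2, 2, 3 and 4 lower. Each of these counts uses the adjusted p of the authors' deposited table under 0.05. Nfkb2 in the ATM pair with APH at 4 h is not called there (log2 0.22), whereas the edgeR fit called it higher (0.25).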

How the data were processed

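Raw read counts of Ensembl genes in 32 samples were deposited as 1 table. Tools named in the submitters' processing notes are TopHat2 2.0.13, DESeq2 1.6.3 and Bowtie2 2.4.0, with build mm10; the counting tool and strand setting are not given in the sources used here. Their 10 deposited comparison tables hold log2 fold changes and adjusted p-values, per the file headers, and 120 columns of single samples in them were not used. The treatments written AT and UT there were read as APH and DMSO. Symbols came from these tables and from GENCODE M21.

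Counts were tested with edgeR 4.0.16 (R 4.3.3): filtering by group (18484 genes kept), TMM scaling, and 1 robust quasi-likelihood model over 32 samples in 16 groups, so that groups of 2 share their estimate of the spread. Benjamini-Hochberg adjustment ran over all genes tested, separately for 30 comparisons, with calls at an adjusted p below 0.05. The SE is the log2 change divided by the root of F. Total counts ran from 9321329 to 21020662, and CPM divides by the total times its TMM factor (0.849 to 1.15). The script was tested on simulated counts.

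The members and lists were chosen with earlier results of these data known. Text names the members, Atm and Atmin, up to 4 genes per list called in most of the 8 APH comparisons (ties by mean size of change), and the 3 genes nearest to each member. Alternatives were DESeq2 1.42.0, other scaling, dropping the filter, blocking on the replicate number, fits of the compared groups only, and leaving out libraries.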

Additional observations from a re-analysis of the deposited data

Results flagged for a closer look

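The results given here are those in which a test of the difference itself found that the APH response of a member differed between a wild-type line and the knock-out set against it, or between 24 h and 4 h within a line. All values are differences of log2 changes with an edgeR adjusted p under 0.05, and 26 of 80 such tests passed. Of all genes tested, between 0.346% and 12.1% were called higher and between 0.325% and 10.3% lower, depending on the comparison. The pooled count mixes these backgrounds, so it is not a result about the members as a set.

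Between the ATM knock-out line and wtATM at 4 h, the response was lower for Nfkbib (-0.59), Relb (-0.56), Nfkbia (-0.53) and Nfkb2 (-0.52) and higher for Nfkbiz (0.67). At 24 h it was higher for Nfkbie (1.15), Nfkbia (1.01), Tnfaip3 (1.00), Nfkb2 (0.72) and Relb (0.63). Between the ATMIN knock-out line and wtATMIN, the Nfkb2 response was higher at 4 h (0.42) and the Tnfaip3 response lower at 24 h (-1.05).

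Within wtATM the response at 24 h was lower than at 4 h for Nfkb1 (-0.47), Nfkb2 (-0.47) and Tnfaip3 (-0.47). Within the ATM knock-out line it was higher for Nfkbia (1.56), Relb (0.80), Nfkb2 (0.77) and Rela (0.56), and within wtATMIN for Nfkbie (0.85), Nfkb2 (0.73), Relb (0.72) and Tnfaip3 (0.64). Within the ATMIN knock-out line it was lower for Nfkb1 (-0.52), Nfkbiz (-0.43) and Nfkbia (-0.38). Time and a possible library batch cannot be told apart, although each response is taken against DMSO samples of its own time. A change of the DMSO level between the times therefore enters these differences too. Groups of 2 were too small to look for single samples far from their group.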

How the results depend on the processing

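No log2 value of a member changed sign past the threshold under any alternative run. Over 300 member tests per alternative, RLE size factors lost 0 calls and gained 3, scaling by total count alone lost 13 and gained 8, no filter on low counts lost 8, and DESeq2 lost 9 and gained 2. Under scaling by total count the median log2 change of all genes reached 0.162, in DMSO 24 h against 4 h of wtATMIN, where it was 0.034 with TMM scaling. Fitting the compared groups only lost 13 and gained 12 calls; the differences of APH response then held 5 calls in place of 10 for ATM and 7 in place of 2 for ATMIN. Without 1 library each, these counts ran from 6 to 12 for ATM and from 1 to 2 for ATMIN; the 6 came without APH 4 h replicate 2 of wtATM or of the ATM knock-out line. Over all members' tests, 140 of 1520 values without 1 library lost and 18 gained their call, those of the ATM and ATMIN differences included. Leaving out both APH 4 h samples of the ATM knock-out line, chosen after seeing the data, lost 0 and gained 5 of 260.

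A fit with a replicate block lost 1 call and gained 0: Nfkbie with APH at 4 h in the ATM knock-out line (0.53, edgeR adjusted p = 0.054). No label says that equal numbers share a culture, and the deviations of same-numbered samples correlated between -0.143 and 0.0696 over the comparisons.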
